A study of Rattus norvegicus with 6 samples.

Results

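Class II molecules of the major histocompatibility complex (MHC; called RT1 in the rat) were followed through 8 genes: the chains RT1-Ba, RT1-Bb, RT1-Da and RT1-Db1, the peptide editors RT1-DMa and RT1-DMb, the invariant chain Cd74 and the transactivator Ciita. Probes were chosen by the platform's gene symbol, without use of their values. The 8 genes themselves were chosen with earlier results of these data known. Of the 8 genes, 7 had 1 probe each among the 22523 probes of the array, and RT1-Bb had none under its symbol in the platform annotation used. The tissue was non-tumor liver of 6 male Wistar rats, 1 Illumina bead array per rat. All 6 had received diethylnitrosamine (DEN, a liver carcinogen) by weekly intraperitoneal injection at 50 mg/kg for 18 weeks. From week 13 to week 18, on 5 days a week, 3 of them (EGCG_228, EGCG_234 and EGCG_236) drank water with 0.02% epigallocatechin gallate (EGCG, a polyphenol of green tea) and 3 (water_224, water_227 and water_237) drank water alone. All were killed at week 19, after 1 week of washout, and no group without DEN was analysed here. The comparison asks whether the green tea catechin goes with another level of these transcripts in the DEN-treated liver.

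As background, MHC class II molecules present peptides from ingested proteins to CD4+ T cells. Each is a pair of an alpha and a beta chain that is assembled in the endoplasmic reticulum on the invariant chain, which fills the groove and steers the complex to endosomes. Cathepsins degrade the invariant chain there, and the DM molecule exchanges its last fragment for a peptide. In the liver, class II is mainly carried by Kupffer cells and other macrophages, dendritic cells and B cells, at lower levels by sinusoidal endothelium, and in inflamed liver it can appear on bile duct epithelium. Transcription depends on CIITA, which binds no DNA itself but joins the RFX, CREB and NF-Y complexes on the X and Y boxes that class II promoters share. Wistar rats are outbred, and RT1 genes are polymorphic, so that a probe can read different alleles unequally.

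The promoters are shown because X and Y boxes are the known site of joint control of class II genes, and to show which of them hold these letters. RefSeq (build GRCr8) gave a promoter of 300 bases, 250 before to 50 after the start of the gene, for 6 of the 8 genes, RT1-Bb included. Ciita and RT1-DMb had no entry in the table used. Capitals mark a Y box (TGATTGG, which holds the inverted CCAAT) and, before it, an X box (a G, any 2 bases and ACNGATG) in the first 4 sequences. In RT1-Ba they mark a Y box alone: these X box letters were absent, which does not show that an X box is absent. In Cd74 they mark the shorter AGCAAC and CCAAT. Each stretch is written 5′ to 3′ along the gene's own strand.
RT1-Da, chr20:4515313-4515390, plus strand: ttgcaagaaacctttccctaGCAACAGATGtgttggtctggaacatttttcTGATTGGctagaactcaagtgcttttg
RT1-Db1, chr20:4560218-4560294, minus strand: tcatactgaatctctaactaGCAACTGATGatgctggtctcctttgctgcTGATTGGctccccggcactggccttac
RT1-Bb, chr20:4604155-4604231, minus strand: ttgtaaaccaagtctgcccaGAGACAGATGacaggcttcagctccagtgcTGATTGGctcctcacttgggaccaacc
RT1-DMa, chr20:4712375-4712452, minus strand: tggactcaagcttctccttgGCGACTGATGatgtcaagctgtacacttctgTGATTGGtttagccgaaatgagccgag
RT1-Ba, chr20:4576952-4577038, plus strand: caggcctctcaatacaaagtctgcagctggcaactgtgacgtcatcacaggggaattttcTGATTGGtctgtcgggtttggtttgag
Cd74, chr18:56526997-56527160, plus strand: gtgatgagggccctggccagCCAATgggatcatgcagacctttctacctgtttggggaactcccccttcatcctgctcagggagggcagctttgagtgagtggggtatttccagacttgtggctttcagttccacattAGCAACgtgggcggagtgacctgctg

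The letters searched for were chosen with these promoters in view, on both strands, and the Y box overlaps the CCAAT motif by construction. The Y box letters stood in 5 of the 6 promoters, all but that of Cd74, and in 7.06% of all 33469 promoters of the same length. The X box letters stood in 4 of them (RT1-Da, RT1-Db1, RT1-Bb and RT1-DMa) and in 2.84% of all promoters. In those 4, the X box came first and 20 or 21 bases separated it from the Y box. An X box followed on the same strand by a Y box after 10 to 30 bases stood in 7 of all promoters (0.0209%): these 4, those of the class II genes RT1-Db2 and RT1-DOb, and that of Hsd17b7, a sterol-pathway enzyme on chromosome 13. AGCAAC was present in 14.7% of all promoters and CCAAT in 37.5%. In the RefSeq annotation the RT1 class II genes lie together on chromosome 20, with Tap2, Psmb8, Tap1 and Psmb9 of the class I pathway between RT1-DOb and RT1-DMb. Cd74 is on chromosome 18 and Ciita on chromosome 10.

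All 7 measured genes were lower on average with EGCG, and 0 of 7 passed the test (limma, Benjamini-Hochberg adjusted p under 0.05 over 13514 probes). Over all named genes, 0.566% passed, 0.446% with a lower level in the EGCG rats, and 48.9% had a difference below 0. At an unadjusted p under 0.05, 1 member was lower, RT1-Ba, where 6.31% of all named genes were, and 0 members reached it with a test without moderated variances. The median difference of the 7 genes was -0.22 on the log2 scale, beside 0.0037 over 9193 named genes. The groups were apart, every EGCG rat below every water rat, for 1 of 7 members, while 8.23% of all named genes were apart in that direction. Single rats stood apart at a gap chosen after the values were seen, more than 2 on the log2 scale beyond the other 5. Water_224 was above the others by that gap at 16 probes, 0 of them RT1, among them the immediate early genes Fos (9.19 against 6.35 to 6.66) and Egr1 (11.12 against 8.11 to 8.95). EGCG_228 was below the others at 3 probes, 2 of them RT1 genes outside class II, whose values are given further below. The class II median was -0.17 without water_224 and -0.31 without EGCG_228. All levels given are log2 intensities after normalization, and all differences are EGCG minus water. In whole liver tissue, fewer cells of a type and less RNA per cell cannot be told apart.

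**Figure D1:**
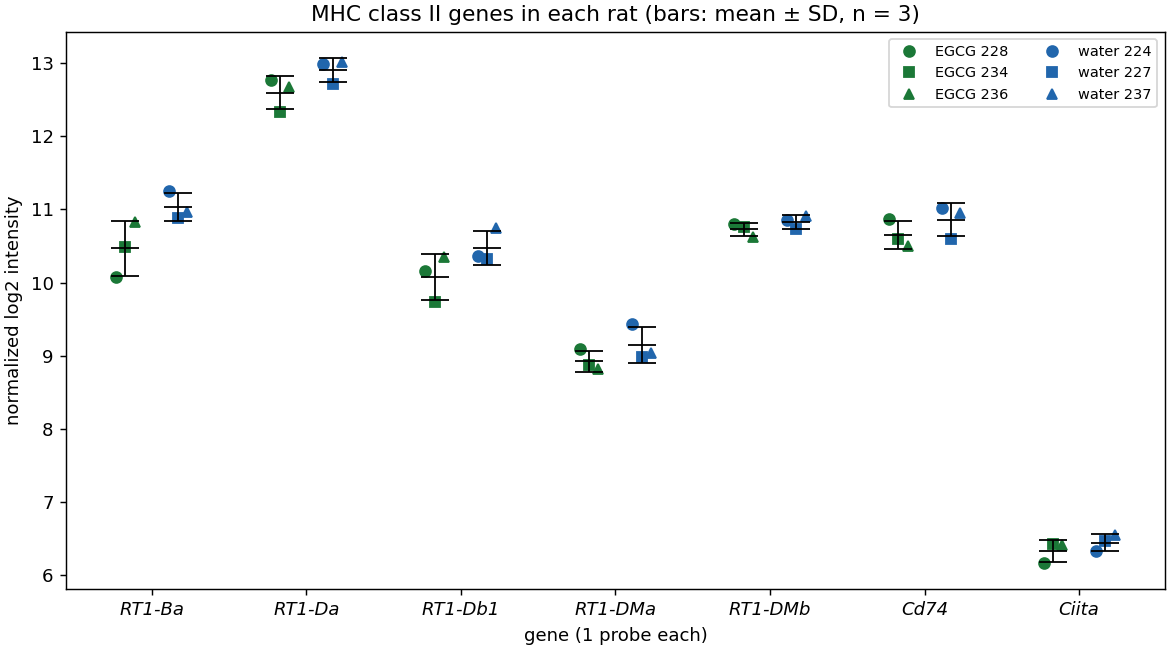
Normalized log2 intensity (vertical axis) of the 7 class II genes with a probe (horizontal axis) in each of 6 rats, with the mean ± SD of 3 rats per group. EGCG and water rats are apart for RT1-Ba only, and heights of different genes are not comparable because each probe has its own brightness.

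RT1-Ba (probe ILMN_1376669), the alpha chain of the B molecule, showed the largest difference of the 7 genes. Its level was 10.08 in EGCG_228, 10.49 in EGCG_234 and 10.83 in EGCG_236, against 11.25, 10.88 and 10.97 in water_224, water_227 and water_237. The groups did not overlap, although EGCG_236 and water_227 lay close together and EGCG_228 far below them. In the deposited intensities, before normalization, RT1-Ba read 1122, 1526 and 1705 in the EGCG rats and 2951, 2102 and 1530.5 in the water rats, so that there water_237, the array with the lowest mean intensity, lay among the EGCG rats. The EGCG rats averaged 10.47 ± 0.38 and the water rats 11.03 ± 0.19 (SD, n = 3 each). The difference was -0.56 (SE 0.21, 95% interval -1.02 to -0.11, 1.48-fold lower), with an unadjusted p = 0.0198 and a limma adjusted p = 0.359. It did not pass the threshold, and it was -0.37 without EGCG_228, the lowest rat, and -0.74 without EGCG_236 (limma adjusted p = 0.707 and 0.0794).

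RT1-Da (ILMN_1376935) and RT1-Db1 (ILMN_1376459) are the alpha and beta chains of the D molecule. RT1-Da stood at 12.77, 12.33 and 12.68 in EGCG_228, EGCG_234 and EGCG_236 and at 12.99, 12.71 and 13.02 in water_224, water_227 and water_237. RT1-Db1 stood at 10.15, 9.74 and 10.35 in the EGCG rats and at 10.36, 10.32 and 10.74 in the water rats, in the same order. For both chains EGCG_234 was the lowest of the 6 rats and, after normalization, water_237 the highest, and the groups overlapped. In the deposited intensities water_224 was the highest for both (9336 and 1623). RT1-Da differed by -0.31 (SE 0.17, 95% interval -0.69 to 0.07, limma adjusted p = 0.611). RT1-Db1 differed by -0.39 (SE 0.20, 95% interval -0.83 to 0.04, limma adjusted p = 0.542). Without EGCG_234 the differences were -0.18 and -0.22.

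RT1-DMa (ILMN_2039346) and RT1-DMb (ILMN_1373278) form DM, the editor that loads peptides onto class II. RT1-DMa stood at 9.09, 8.87 and 8.81 in EGCG_228, EGCG_234 and EGCG_236 and at 9.43, 8.99 and 9.03 in water_224, water_227 and water_237. Its difference of -0.22 (SE 0.17, 95% interval -0.59 to 0.14, limma adjusted p = 0.72) was -0.08 without water_224, the highest rat. RT1-DMb had the narrowest spread of the 7 genes, 0.28 between the lowest and the highest rat. It stood at 10.80, 10.76 and 10.63 in the EGCG rats and at 10.85, 10.72 and 10.90 in the water rats, in that order, and the groups overlapped. It differed by -0.10 (SE 0.15, 95% interval -0.43 to 0.23, limma adjusted p = 0.894), an interval that holds changes in either direction.

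Cd74 (ILMN_1373953), the invariant chain, stood at 10.87, 10.60 and 10.50 in EGCG_228, EGCG_234 and EGCG_236 and at 11.02, 10.60 and 10.95 in water_224, water_227 and water_237. Water_227 lay among the EGCG rats, and EGCG_228 close to the other water rats. The difference was -0.21 (SE 0.18, 95% interval -0.60 to 0.18, limma adjusted p = 0.774), and it ran from -0.33 without water_227 to -0.13 without water_224. Ciita (ILMN_1373305), the transactivator, was dim: its mean of 6.39 was at the 40.6th percentile of all probes, just above the filter of the 40th percentile. It stood at 6.16, 6.42 and 6.42 in the EGCG rats and at 6.33, 6.47 and 6.55 in the water rats, in the same order. Its difference of -0.11 (SE 0.10, 95% interval -0.34 to 0.12, limma adjusted p = 0.795) was -0.03 without EGCG_228. With no detection p-values deposited, Ciita cannot be called present or absent at this intensity. The other 6 probes lay at the 88.7th percentile or above.

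**Figure D2:**
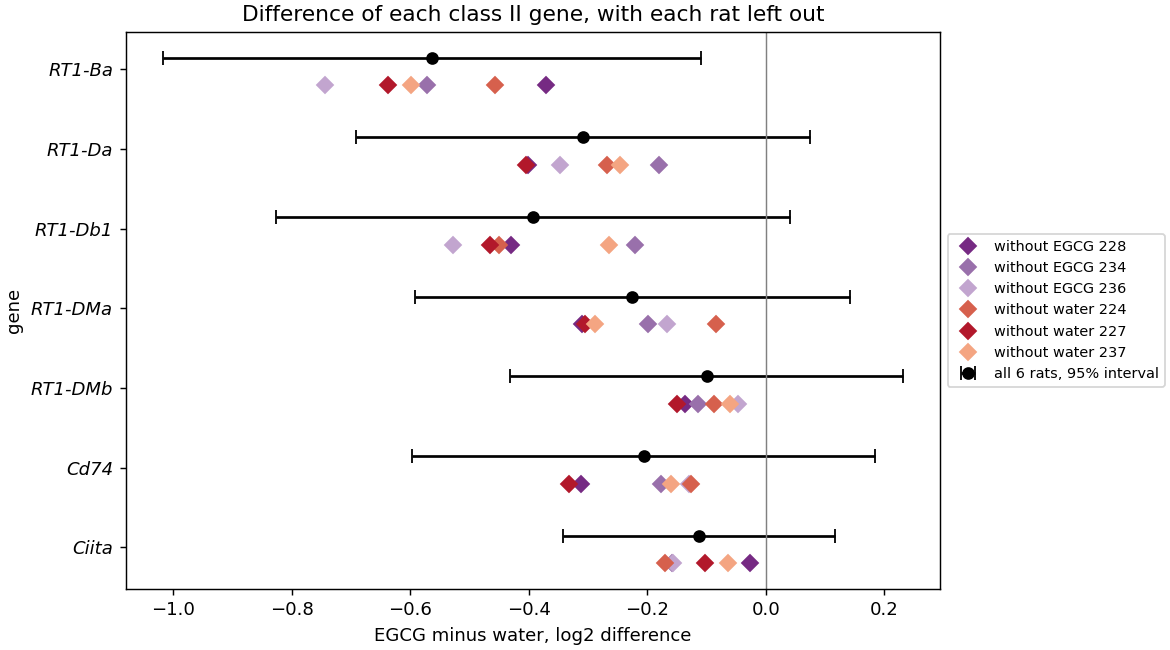
EGCG minus water difference on the log2 scale (horizontal axis) for each class II gene (vertical axis): black points and bars give limma's estimate over 6 rats with its 95% interval, and diamonds the estimate with 1 rat left out. All estimates lie below 0, and only the interval of RT1-Ba over 6 rats lies wholly below it.

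Taken over the 7 genes, the EGCG rats lay below the water rats. Relative to the mean of the water rats, the mean of the 7 genes was -0.25 in EGCG_228, -0.35 in EGCG_234 and -0.21 in EGCG_236, and it was 0.08, -0.14 and 0.07 in water_224, water_227 and water_237. Water_237 was the highest rat for 4 genes and water_224 for 3, while the lowest rat was EGCG_236 for 3 genes and EGCG_228 and EGCG_234 for 2 each. Water_227 was neither for any gene. These ranks are of normalized levels, and water_237 was the array with the lowest mean intensity. In the deposited intensities, RT1-DMb was lowest in water_237 (1472). RT1-Da there read 6487 in water_237, below EGCG_228 (7016) and EGCG_236 (6496). Within-array ratios of partner probes overlapped between the groups: the ratio of RT1-Da to RT1-Db1 differed by 0.08, that of RT1-DMa to RT1-DMb by -0.13 and that of RT1-Da to Cd74 by -0.10 (exact permutation p from 0.6 to 0.7, two-sided, where 3 rats against 3 cannot give less than 0.1). The ratio of RT1-Ba to RT1-Da differed by -0.25 (exact permutation p = 0.5, adjusted p = 0.7 over the 4 ratios). It was -0.82 in EGCG_228 relative to the water mean and between -0.17 and 0.13 in the other 5 rats, so that RT1-Ba was low in EGCG_228 where RT1-Da was not.

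EGCG_228 stood apart in RT1 genes outside class II as well. RT1-A2, a class I gene, read 6.30 in EGCG_228 and 10.70 to 11.11 in the other 5 rats. RT1-T24-4 read 7.99 against 10.02 to 10.49. Of 22 such RT1 genes kept by the filter, 7 were lowest in EGCG_228 by more than 0.5 to the next rat (RT1-A2, RT1-A3, RT1-CE5, RT1-CE7, RT1-CE15, RT1-M6-2 and RT1-T24-4), and 0 were so in any other rat. Over all named genes, 0.141% were lowest in EGCG_228 by that gap and at most 0.392% in any rat. This gap and count were chosen after the values were seen. The RT1 class II genes held 0 of 8 with such a gap, and the gap of RT1-Ba was 10.08 against 10.49. B2m, the light chain shared by class I molecules, did not stand out (14.85 in EGCG_228, 14.82 to 15.18 in the others). The part of these rat-specific RT1 values in the RT1-Ba difference was not tested beyond leaving the rat out, which gave -0.37.

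**Figure D3:**
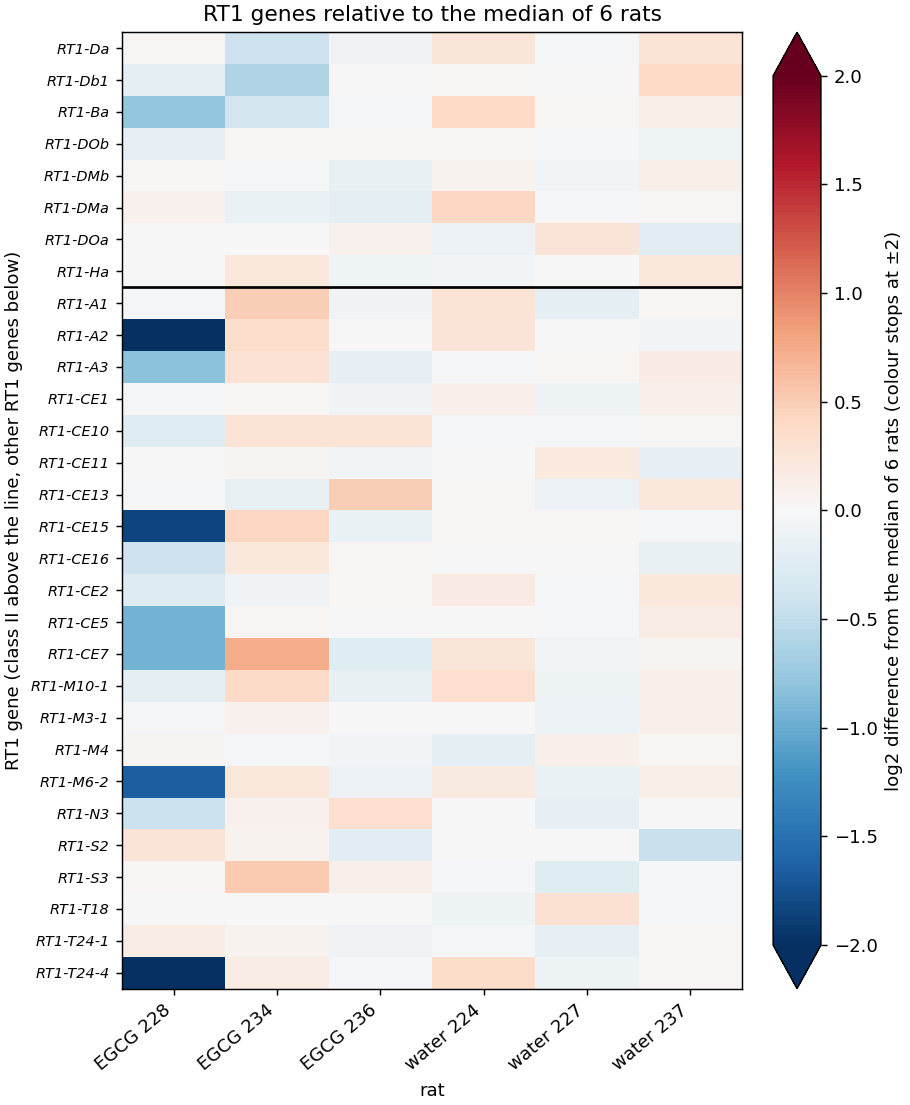
Log2 difference of each RT1 gene (rows) from its median over 6 rats, in each rat (columns), with class II genes above the line and other RT1 genes below. EGCG_228 is low for RT1-A2, RT1-CE15, RT1-M6-2 and RT1-T24-4, and above the line the strongest departures are those of RT1-Ba in EGCG_228 and RT1-Db1 in EGCG_234.

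Of the other genes of the class II region, 2 of 5 were below 0 (RT1-DOb and RT1-Ha, both close to 0), and the median was 0.06. Their mean level relative to the water mean was 0.09, 0.19 and 0.11 in EGCG_228, EGCG_234 and EGCG_236 and -0.0017, 0.04 and -0.03 in water_224, water_227 and water_237, so that the EGCG rats were above the water rats, opposite to the members. RT1-DOa and RT1-DOb, chains of DO, a B cell inhibitor of DM, were dim and differed by 0.06 and -0.0002 (limma adjusted p = 0.93 and 0.9999). RT1-Ha, also dim (44.4th percentile), differed by -0.01 (limma adjusted p = 0.983). Btnl2, a butyrophilin-like regulator of T cells, was as dim as Ciita (40.6th percentile) and differed by 0.33 (limma adjusted p = 0.181). Brd2, a bromodomain protein, differed by 0.28 (limma adjusted p = 0.493). The EGCG rats were above the water rats for Btnl2 and Brd2, and the groups overlapped for RT1-DOa, RT1-DOb and RT1-Ha. Of the 5 genes, 0 passed. No probe carried the symbol RT1-Db2.

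Among 14 measured transcription and interferon signaling genes that act on class II, 0 passed and 6 had a difference below 0 (median 0.01). Rfx5, a DNA-binding subunit of RFX, differed by 0.17 (limma adjusted p = 0.737), and Rfxank, another subunit, by 0.25 (limma adjusted p = 0.488). Irf1, an interferon-induced factor that drives Ciita, was at 9.65 ± 0.23 in the EGCG rats and 9.67 ± 0.37 in the water rats (SD, n = 3 each; limma adjusted p = 0.988). Ifngr1, a chain of the interferon gamma receptor, differed by -0.24 and Jak2, its kinase, by -0.18 (limma adjusted p = 0.683 and 0.732). Of 16 interferon gamma targets, 0 passed, 6 were below 0 and the median was 0.04. Within that list Cxcl11, a T cell chemokine, differed by 0.79 (limma adjusted p = 0.115) and Cxcl10 by -0.32 (limma adjusted p = 0.435).

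Most genes that process antigen for class II had lower means in the EGCG rats. Of 16 measured, 1 fell, 0 rose and 14 were below 0, with a median of -0.16, and the groups were apart for 6, each lower with EGCG. Over all named genes, 0.446% fell, 48.9% were below 0 and 8.23% were apart in that direction. Ctse, the endosomal aspartic protease cathepsin E, fell 2.004-fold, from 8.64 ± 0.17 to 7.64 ± 0.24 (SD, n = 3 each; log2 -1.003, SE 0.16, limma adjusted p = 0.0253). Its call was lost without EGCG_228, water_227 or water_237. Ctss, cathepsin S, the protease that removes the invariant chain in professional antigen-presenting cells, stood at 10.44, 10.57 and 10.30 in EGCG_228, EGCG_234 and EGCG_236 and at 10.78, 10.80 and 10.74 in water_224, water_227 and water_237. The Ctss groups were apart, but the difference of -0.34 (SE 0.15) did not pass (limma adjusted p = 0.48). Cd63, an endosomal tetraspanin, differed by -0.69 (limma adjusted p = 0.0808). Lgmn, an asparagine endopeptidase, differed by -0.50 (limma adjusted p = 0.25) and Cst3, the cathepsin inhibitor cystatin C, by -0.58 (limma adjusted p = 0.251).

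The class I pathway served as the comparison within antigen presentation. Of 27 measured genes, 0 passed, 16 were below 0 and the median was -0.0039. Psmb8, an immunoproteasome subunit encoded between the class II genes, differed by 0.47 (limma adjusted p = 0.453) and Tap2, a peptide transporter chain, by 0.35 (limma adjusted p = 0.586). Pdia3, a chaperone of class I loading, differed by -0.33 (limma adjusted p = 0.541) and RT1-S3, a class I heavy chain, by 0.31 (limma adjusted p = 0.606). The mean of the list was -0.41 in EGCG_228 relative to the water rats and between -0.09 and 0.19 in the other 5 rats.

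Marker transcripts of the cell types that can carry class II differed in direction between lists, and their part in the class II values was not tested. The liver label was met by hepatocyte markers: the 15 measured lay at the 86.6th percentile of intensity or above, with Alb at 15.04 ± 0.25 in the EGCG rats and 14.98 ± 0.29 in the water rats (SD, n = 3 each). Of these 15, 0 passed, 6 were below 0 and the median was 0.02. Single genes differed more, such as Cyp2c11 by 2.44 and Tat by -1.17 (limma adjusted p = 0.142 and 0.203). Summed over the 7 class II genes, linear normalized intensities ran from 11290 to 13490 in the EGCG rats and from 13700 to 16550 in the water rats. Summed over 17 macrophage and Kupffer cell markers, they ran from 14080 to 16200 with EGCG and from 16240 to 21720 with water. Over 14 general leukocyte markers they ran from 7414 to 7745 and from 7759 to 10040. Over 9 cholangiocyte markers they ran from 3093 to 4759 and from 5841 to 7524. For these 3 lists, as for class II, the EGCG rats were all below the water rats, by a narrow margin for class II, macrophages and leukocytes. RT1-Da, the brightest of the 7 class II probes, weighs most in the class II sum, and its own groups overlapped. On the mean of log2 levels, the macrophage list overlapped. No marker was at 0 in any rat, because bead intensities carry background.

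By gene, 0 of 17 macrophage markers passed and 14 were below 0 (median -0.21). The complement chain C1qc and the Fc receptor chain Fcer1g differed by -0.48 and -0.44 (limma adjusted p = 0.39 and 0.427), and the lipopolysaccharide receptor Cd14 by -0.69 (limma adjusted p = 0.23). Marco, a scavenger receptor, went the other way at 1.03 (limma adjusted p = 0.131), and the hemoglobin scavenger receptor Cd163 differed by 0.04 (limma adjusted p = 0.972). Of 14 leukocyte markers, 0 passed and 12 were below 0 (median -0.18). Ptprc, the pan-leukocyte phosphatase CD45, differed by -0.29 (limma adjusted p = 0.435), and the actin-bundling Lcp1 by -0.53 (limma adjusted p = 0.37). All 9 cholangiocyte markers were below 0 (median -0.58), and 0 passed. The tetraspanin Tspan8 differed by -1.04 (limma adjusted p = 0.0917) and the keratin Krt19 by -1.39 (limma adjusted p = 0.172).

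Of 8 dendritic cell markers kept by the filter, 1 fell and 5 were below 0 (median -0.06). That gene was Clec10a, a galactose-type lectin of dendritic cells and macrophages, which fell 2.002-fold. Its level was 8.01, 7.96 and 7.92 in EGCG_228, EGCG_234 and EGCG_236 and 8.91, 8.70 and 9.29 in water_224, water_227 and water_237. The Clec10a difference was -1.001 (SE 0.17, limma adjusted p = 0.0304), and the call was lost when any rat but EGCG_236 was left out. Zbtb46, a transcription factor of conventional dendritic cells, differed by -0.38 (limma adjusted p = 0.252) and the growth factor receptor Flt3 by -0.14 (limma adjusted p = 0.679). Batf3, Id2 and Ccr7 went the other way, by 0.15, 0.20 and 0.11 (limma adjusted p = 0.693, 0.748 and 0.86). Summed over the 11 dendritic cell markers with a probe, linear intensities overlapped, from 5378 to 6143 with EGCG and from 4854 to 5959 with water. Of B cell and plasma cell markers, 4 of 9 were kept by the filter, 0 passed and 1 was below 0 (median 0.08). On the mean of log2 levels of those 4, the EGCG rats were above the water rats. Summed over all 9, linear intensities overlapped, from 3879 to 5020 with EGCG and from 3673 to 5018 with water. The 4 kept were Cr2, Cd79b, Blk and Xbp1. Xbp1 was by far the brightest of them (97.9th percentile), weighs most in the sum over all 9 and differed by 0.10 (limma adjusted p = 0.926). Of the others, Cr2, Cd79b and Blk were dimmer (percentiles 43.44, 61.15 and 61.58). Cd79b, a chain of the B cell receptor, differed by 0.07 (limma adjusted p = 0.894). Ms4a1, Pax5, Cd22, Fcer2 and Mzb1 were below the filter and differed by -0.14, -0.06, -0.09, -0.10 and -0.25. These were all lower with EGCG, opposite to the mean of the 4 kept. Of 14 T and NK cell markers, 0 passed and 8 were below 0 (median -0.02). Cd3e, a T cell receptor chain, differed by -0.12 (limma adjusted p = 0.853), Cd8a by 0.39 (limma adjusted p = 0.335) and Cd4, the coreceptor that binds class II, by -0.15 (limma adjusted p = 0.694). Of 8 genes of costimulation and T cell contact kept by the filter, 0 passed and 4 were below 0 (median -0.01). Cd48, a ligand of lymphocyte adhesion, differed by -0.44 (limma adjusted p = 0.518). Icam1 and Ctla4 differed by 0.10 and 0.08 (limma adjusted p = 0.926 and 0.907). Of 5 sinusoidal endothelial markers, 0 passed, with Lyve1, a hyaluronan receptor, at 0.02 and Cd36, a fatty acid receptor, at -0.64 (limma adjusted p = 0.982 and 0.396).

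**Figure D4:**
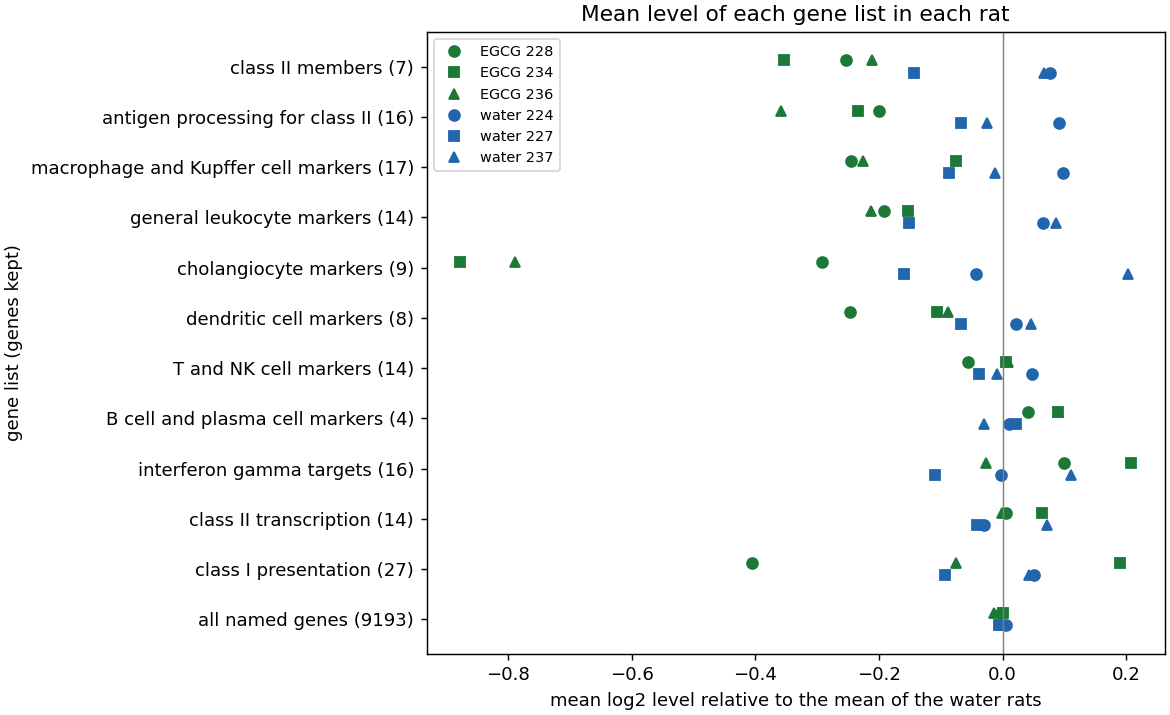
Mean log2 level of each gene list in each rat relative to the mean of the water rats (horizontal axis), with the number of genes kept by the filter beside each list (vertical axis). EGCG rats lie below water rats for the class II, antigen processing, leukocyte, cholangiocyte and dendritic cell lists. They lie above water rats for the B cell list, of which 4 of 9 genes were kept, and overlap them for the remaining lists shown.

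The genes whose pattern over the 6 rats was most like the mean class II level included genes of connective tissue and epithelium. Likeness was Pearson's r over 6 rats with the mean of the 7 centred members. It is a description over rats of 2 groups, for the 10 highest of the named genes that are not members, and no p is attached. They were Ltbp1, a matrix protein that binds latent TGF-beta (r = 0.996), the collagen-modifying Plod2 (0.983), the septin Septin1 (0.982), the fibrillar collagen Col5a2 (0.981), podoplanin, Pdpn (0.978), the filamin-binding Fblim1 (0.978), the epithelial transcription factor Grhl2 (0.976), Prom1, prominin 1 (0.976), the platelet chemokine Ppbp (0.976) and the F-box gene Fbxo34 (0.975). The EGCG rats were below the water rats for all 10, which the choice by likeness to a class II mean with that order largely fixes. Fblim1 passed the threshold (log2 -1.12, SE 0.19, limma adjusted p = 0.0304) and the other 9 did not.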

How the data were processed

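Per the labels' protocols, RNA came from snap-frozen tissue by TRIzol extraction. The authors deposited raw bead intensities of 22523 probes, not normalized between arrays as the values show, and a second table of normalized intensities, an alternative here. Scanner software and normalization method: not given in the sources used here. The raw intensities were background-corrected with limma's normexp (offset 50, which shrinks the differences of dim probes), quantile normalized and log2 transformed. Probes above the 40th percentile of mean level (log2 6.39) were kept, 13514 in all. EGCG was compared with water, 3 rats each, by limma's moderated test with a trend on intensity (lmFit and eBayes, two-sided; R 4.3.3, limma 3.58.1), with Benjamini-Hochberg adjustment over all probes kept. Each gene stands at its brightest probe; 13793 probes had 1 symbol in the platform annotation and 8730 had none. The scripts were tested on simulated data.

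Array medians ran from 112 to 121, and Pearson's r between arrays was 0.971 to 0.989. The number of arrays limits the precision. No batch was given in the labels or files, so that none could be tested. The members, gene lists and motifs were chosen with earlier results of these data known. The text names all members, up to 4 genes of each list with the smallest unadjusted p, a set of key genes (of which RT1-Db2, Cd68, Itgax and Cd79a had no probe, and some are not reported here) and the 10 genes most like the class II level. Alternatives changed the background correction, normalization, filter, variance model, array weights and the rats included.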

Additional observations from a re-analysis of the deposited data

How the results depend on the processing

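All 7 class II differences stayed below 0, and 0 members passed, under each of the 18 alternatives: background correction (offset 16 or none), median scaling, cyclic loess, the authors' normalized table, no filter or the 60th percentile, the variance models, array weights, the mean of a gene's probes and each rat left out. The lowest adjusted p of any member was 0.0794, for RT1-Ba without EGCG_236, and for RT1-Ba it ran up to 0.709. Ciita fell below the filter, and so was not tested, with the stricter filter and without EGCG_234, EGCG_236, water_227 or water_237. The class II median ran from -0.33 without water_227 to -0.17 without EGCG_236 when a rat was left out, and was -0.17 with array weights. The number of probes past the threshold, 66, became 42 without an intensity trend, 172 with array weights and 0 in the test without moderated variances (1164 probes at an unadjusted p under 0.05; limma had 1376), and ran from 12 (without EGCG_228) to 186 (without EGCG_236) when a rat was left out. Genes of the other lists past the threshold, 2, became 5 with array weights and 0 without moderated variances, and ran from 0 to 6 when a rat was left out. The cause of these shifts was not tested. No paired analysis was possible because the rats of the groups share no number.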
